A study of Mus musculus with 12 samples.

Results

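The Hist1 cluster of mouse chromosome 13 holds most of the genes from which dividing cells make new histones. Its members were taken here as every gene whose symbol in the GENCODE M21 annotation starts with Hist1h. Of 56 such genes in the annotation, 54 have a row in the deposited table of 43346 genes. Of these 54, 44 had enough reads to be tested, among 17148 genes tested in all. The tested members comprise 5 genes of the linker histone H1, 10 of H2A, 10 of H2B, 9 of H3 and 10 of H4.

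Genes of this kind are called replication-dependent, because they are switched on as DNA is copied and supply the proteins that package the new strands. H2A, H2B, H3 and H4 form the core around which DNA is wound, and H1 binds the DNA that enters and leaves it. Their mRNAs are known for having no introns and for ending, in place of a poly(A) tail, in a short stem-loop that the protein SLBP binds. Several members are also known to make longer, polyadenylated transcripts in cells that have left the cycle or are differentiating.

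The RNA came from mouse embryonic stem cells, in 12 libraries that fall into 4 groups of 3. B6 is the inbred strain C57BL/6J and D2 the inbred strain DBA/2J. B6-13D2 is the congenic strain B6.D2-(rs30079041-rs51756099)/Bakr, which has a D2 segment of chromosome 13 on the B6 background. D2-13B6 is the reverse, with a B6 segment on the D2 background, and its sample labels name it D2.B6-(rs29224292-rs13469455)/Bakr. These names give different markers at both ends, so whether the segments are the same stretch is not known. Statements on the segment's allele below take them as the same. All groups grew in the same serum medium with LIF, 1 µM of the MEK inhibitor PD0325901 and 3 µM of the GSK3 inhibitor CHIR99021. Per the labels' protocols each strain was sampled as separate cultures of a single cell line, so strain and line cannot be told apart, and p-values measure only the spread between such cultures. The labels conflict in places: B6 replicate 3 has another line name than B6 replicates 1 and 2, the titles speak of technical replicates, the D2 titles and the D2 cell line field name different lines, and the series text ends the D2-13B6 segment at another marker. The positions of the segment ends in the genome are not given in the sources used here, so it is not known from them whether the cluster lies inside the exchanged segment.

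The libraries held from 22184196 to 36411799 expected counts. The 8 embryonic stem cell markers examined, among them Pou5f1, Nanog and Sox2, were present in every library and summed to between 3066 and 5229 CPM (counts per 1000000 counts of the library, after TMM scaling). The 5 fibroblast markers examined, Col1a1, Col1a2, Col3a1, Thy1 and Pdgfra, were also present in every library, at sums that differed between the groups.

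The stem-loop shows how alike the members are, and where it stands in the gene model tells which transcripts are annotated past it. Per the labels' protocols the libraries were made with an mRNA kit, and whether that kit captured poly(A) tails is not given in the sources used here. A match to the histone stem-loop consensus was found in the annotated transcripts of 35 of 56 members (62.5%) and of 5 of 21884 other protein-coding genes (0.023%). It began 24 to 46 bases after the stop codon, with a median of 31. Some models without a match end before that point, as Hist1h2bl (381 bases, 378 of them coding) and Hist1h4k (312 and 309). No match could be found in those models, so its absence there does not show that the gene lacks a stem-loop. The 7 stem-loops below, from GENCODE M21 transcripts (GRCm38), belong to members whose levels are described next. The capitals mark the stem, the loop and the closing arm of the stem, and 5 bases are shown on either side.
Hist1h1c: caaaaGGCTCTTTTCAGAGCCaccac
Hist1h2ab: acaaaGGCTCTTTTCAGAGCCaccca
Hist1h2be: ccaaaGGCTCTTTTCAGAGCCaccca
Hist1h3b: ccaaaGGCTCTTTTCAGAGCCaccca
Hist1h3c: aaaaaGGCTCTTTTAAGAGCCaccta
Hist1h4h: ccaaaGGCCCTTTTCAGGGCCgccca
Hist1h4i: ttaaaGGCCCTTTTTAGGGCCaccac
These elements lie at chr13:23739512-23739527 (+) for Hist1h1c, chr13:23751572-23751587 (+) for Hist1h2ab, chr13:23585531-23585546 (-) for Hist1h2be and chr13:23752820-23752835 (+) for Hist1h3b. Those of Hist1h3c, Hist1h4h and Hist1h4i lie at chr13:23745047-23745062 (-), chr13:23531458-23531473 (+) and chr13:22040966-22040981 (-). The form seen in Hist1h1c, Hist1h2ab, Hist1h2be and Hist1h3b was shared by 20 members, none of them an H4 gene. The form of Hist1h4h was shared by 6 members, all of them H4 genes, and that of Hist1h3c by 6 members of other classes. In 16 members the annotated transcript went on for at least 100 bases past the stem-loop, by 840 bases in Hist1h1c, 1861 in Hist1h2be and 4884 in Hist1h1d. Hist1h2bc has a single, spliced model in which no match was found.

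The promoters carried letters known from histone genes more often than promoters at large. RefSeq promoter windows (GRCm38.p6, 300 bases around the annotated start, most of them before it) were matched for 50 of the 56 members. TATAAA was found in 30 of 50 (60.0%) against 14.139% of all 27025 promoters, CCAAT in 42 (84.0%) against 37.78%, and the octamer ATTTGCAT in 10 of 50 against 1.739%, each on either strand and none containing another. The octamer was found in 5 of 13 H2A and 5 of 14 H2B promoters and in no promoter of another class. Some windows of divergent H2A and H2B neighbours overlap. Hist1h2ah and Hist1h2bk, Hist1h2ae and Hist1h2bg, and Hist1h2aa and Hist1h2ba each had the same octamer counted for both genes. The counts of all 3 kinds of letters are thus not counts of independent sites. CCAAT was found in all promoters of H1, H2A, H2B and H3 genes and in 3 of 11 H4 promoters. The 3 windows below belong to genes that were lower in both congenic lines, and the capitals mark the letters searched on either strand.
Hist1h2ac: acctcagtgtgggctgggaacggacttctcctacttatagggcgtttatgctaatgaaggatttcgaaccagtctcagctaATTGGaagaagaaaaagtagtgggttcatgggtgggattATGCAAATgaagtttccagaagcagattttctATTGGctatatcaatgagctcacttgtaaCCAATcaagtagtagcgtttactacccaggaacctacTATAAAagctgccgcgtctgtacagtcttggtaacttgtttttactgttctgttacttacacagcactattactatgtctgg
Hist1h3b: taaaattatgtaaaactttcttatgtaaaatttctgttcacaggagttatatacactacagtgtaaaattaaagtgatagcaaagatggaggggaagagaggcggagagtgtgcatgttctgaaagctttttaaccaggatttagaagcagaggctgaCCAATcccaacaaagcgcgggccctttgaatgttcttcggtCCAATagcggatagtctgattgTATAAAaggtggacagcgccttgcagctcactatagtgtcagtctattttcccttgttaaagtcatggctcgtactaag
Hist1h1c: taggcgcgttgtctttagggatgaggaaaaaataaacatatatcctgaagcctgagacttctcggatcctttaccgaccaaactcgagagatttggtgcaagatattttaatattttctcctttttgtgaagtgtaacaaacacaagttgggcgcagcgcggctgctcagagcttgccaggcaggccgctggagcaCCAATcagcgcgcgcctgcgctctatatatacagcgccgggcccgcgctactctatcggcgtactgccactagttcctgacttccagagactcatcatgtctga
The first window, chr13:23683910-23684209 (-), starts Hist1h2ac on the minus strand and also spans the annotated start of Hist1h2bc, which is transcribed the other way. It held all 3 kinds of letters. The window of Hist1h3b, chr13:23752095-23752394 (+), held TATAAA and CCAAT, and that of Hist1h1c, chr13:23738557-23738856 (+), held CCAAT. A match is a description of the letters and not a measured binding site.

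The summed RNA of the cluster was highest in D2, lower in B6, lower again in D2-13B6 and lowest in B6-13D2. Summed over the 54 members, it stood at 168.3 ± 5.62 CPM in B6 and 253.3 ± 18.9 CPM in D2 (mean ± SD, n = 3 libraries). In the congenic lines it stood at 71.4 ± 1.99 CPM in B6-13D2 and 137.2 ± 1.67 CPM in D2-13B6. No library of any group overlapped with another group in this sum, which ran from 70.03 to 73.7 CPM in B6-13D2, 135.3 to 138.5 in D2-13B6, 163.7 to 174.5 in B6 and 233.4 to 271.1 in D2. D2 was 1.505-fold above B6, B6-13D2 was 2.36-fold below B6, and D2-13B6 was 1.85-fold below D2. In bulk RNA a smaller share of cells that make these transcripts and less RNA per cell cannot be told apart. The summed fibroblast markers had the same order of groups (9261 to 10070 CPM in B6, 13930 to 16720 in D2, 3056 to 3142 in B6-13D2 and 7585 to 7918 in D2-13B6), and their part in this and the following results was not tested.

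The order D2, B6, D2-13B6, B6-13D2 of the group means was the same in each of the 5 histone classes, with different ratios. In H2A and H4 the libraries of B6 and D2-13B6 overlapped. The linker class H1 summed to 66.0 ± 2.50 CPM in B6 against 103 ± 7.32 in D2, and to 25.4 ± 0.943 in B6-13D2 against 56.1 ± 0.193 in D2-13B6. H2B, the other abundant class, summed to 59.0 ± 2.95, 90.2 ± 2.85, 22.4 ± 0.809 and 43.6 ± 1.95 CPM in groups B6, D2, B6-13D2 and D2-13B6. These 2 classes had the largest ratios, with B6-13D2 at 2.59-fold below B6 for H1 and 2.64-fold below for H2B.
The remaining core classes were scarcer and differed by less. H2A summed to 12.7 ± 0.585 CPM in B6 against 17.3 ± 2.10 in D2, and to 5.56 ± 0.494 in B6-13D2 against 11.8 ± 0.381 in D2-13B6. With the groups named in that sequence, H3 summed to 17.9 ± 1.19, 25.0 ± 3.19, 9.61 ± 0.0154 and 14.8 ± 0.913 CPM. H4 summed to 12.7 ± 2.58, 17.4 ± 3.72, 8.43 ± 0.390 and 10.8 ± 1.21 CPM, and was the class whose B6 and D2 libraries overlapped. A sum does not change with how reads were divided among the Hist1h genes of its class, but reads divided with histone genes outside the cluster can still move it. The sums of H1, H2B and H4 also moved with the genes included. Without Hist1h1c, the ratio of B6-13D2 to B6 for H1 was 0.816 in place of 0.386. Without Hist1h2bc, the fall of H2B was smaller in both congenic lines. With these genes left out, both classes fell less in B6-13D2 than H2A did (ratio 0.439). With the 2 H4 genes that have whole counts alone (Hist1h4d and Hist1h4f, both scarce), the H4 ratio turned, to 0.805 for D2 over B6 and 1.21 for D2-13B6 over D2.

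**Figure D1:**
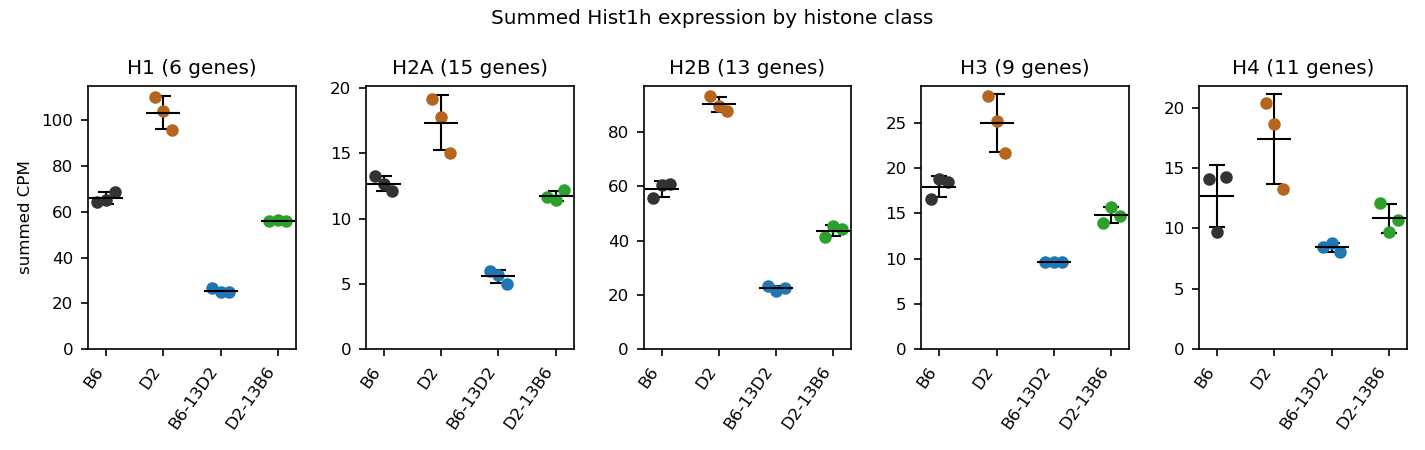
Summed CPM of the Hist1h genes of each histone class (vertical axes, each from 0) in the 4 groups, with a point for each library, a line at the mean and bars of 1 SD over 3 libraries. D2 is highest and B6-13D2 lowest in every class, and the libraries of B6 and D2 overlap in H4.

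A pair of genes made up most of this RNA. Hist1h1c, which encodes a somatic linker histone, and Hist1h2bc, which encodes an H2B, held on average 38.2% and 26.8% of the cluster's CPM. Together they held 65.2% to 66.7% of it in B6 libraries, 66.6% to 70.5% in D2, 55.3% to 56.8% in B6-13D2 and 62.3% to 62.7% in D2-13B6. Per kilobase of exonic sequence, Hist1h1c and Hist1h2bc had the highest mean levels in each group, at 40.7 and 41.4 CPM per kb in B6, 64.2 and 62.5 in D2, 15.00 and 14.4 in B6-13D2 and 34.5 and 27.6 in D2-13B6. The next in order depended on the group. In B6 and D2 it was Hist1h3b (14.3 and 22.6 CPM per kb), followed by Hist1h2ab (11.8 and 15.5). In B6-13D2 Hist1h4i (5.49) stood above Hist1h3b (3.86) and Hist1h2ab (1.77), and in D2-13B6 Hist1h2ag (7.09) stood close to Hist1h3b (7.50) and above Hist1h2ab (5.14). The 52 members other than Hist1h1c and Hist1h2bc summed to 57.0 ± 1.63 CPM in B6 against 80.9 ± 11.1 in D2, and to 31.3 ± 0.639 in B6-13D2 against 51.5 ± 0.453 in D2-13B6, so the order of the groups did not rest on that pair.

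The comparison of D2 with B6 asks how the cluster differs between the 2 strains. Of 44 members tested, 16 (36.4%) were called by edgeR's quasi-likelihood test with Benjamini-Hochberg adjustment over all genes at 0.05, against 60.0% of all genes tested, so that being called was not more frequent in the cluster. The direction was uneven: 15 members (34.1%) rose in D2, against 29.8% of all genes, and 1 (2.27%) fell, against 30.3%. The libraries of both strains did not overlap for 13 members, against 62.0% of all genes. The median log2 fold change was 0.54 over the members and 0.01 over all genes. The risen members were 2 of 5 H1 genes, 3 of 10 H2A, 5 of 10 H2B, 2 of 9 H3 and 3 of 10 H4 genes. The count fell to 9, all higher in D2, without D2 replicate 1.

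The comparison of B6-13D2 with B6 asks what changes with the D2 segment, together with any other difference between the lines. In B6-13D2, 15 of 44 members (34.1%) were called, against 58.3% of all genes, and all 15 were lower, against 32.9% of all genes. No member was called higher, where 25.4% of all genes were. The count of higher members was also 0 at an unadjusted p under 0.05 with edgeR and 0 with DESeq2, and it was 1 without B6 replicate 1. Libraries did not overlap for 17 members (38.6%), against 63.2% of all genes. The median log2 fold change was -0.51 over the members and -0.04 over all genes. The fallen members were 1 H1, 5 H2A, 4 H2B, 3 H3 and 2 H4 genes.

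The comparison of D2-13B6 with D2 asks the same of the B6 segment on the D2 background. In D2-13B6, 15 of 44 members were called, against 57.3% of all genes, of which 12 (27.3%) fell, against 29.7% of all genes. The 3 members that rose (6.82%, against 27.6%) were Hist1h2ag, Hist1h4b and Hist1h3h, and without D2-13B6 replicate 3 the count was 1. Libraries did not overlap for 17 members, against 62.9% of all genes. The median log2 fold change was -0.47 over the members and 0.00 over all genes. The fallen members were 2 H1, 3 H2A, 3 H2B, 1 H3 and 3 H4 genes. D2 against B6 shares its libraries with both congenic comparisons, which share none with each other.

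**Figure D2:**
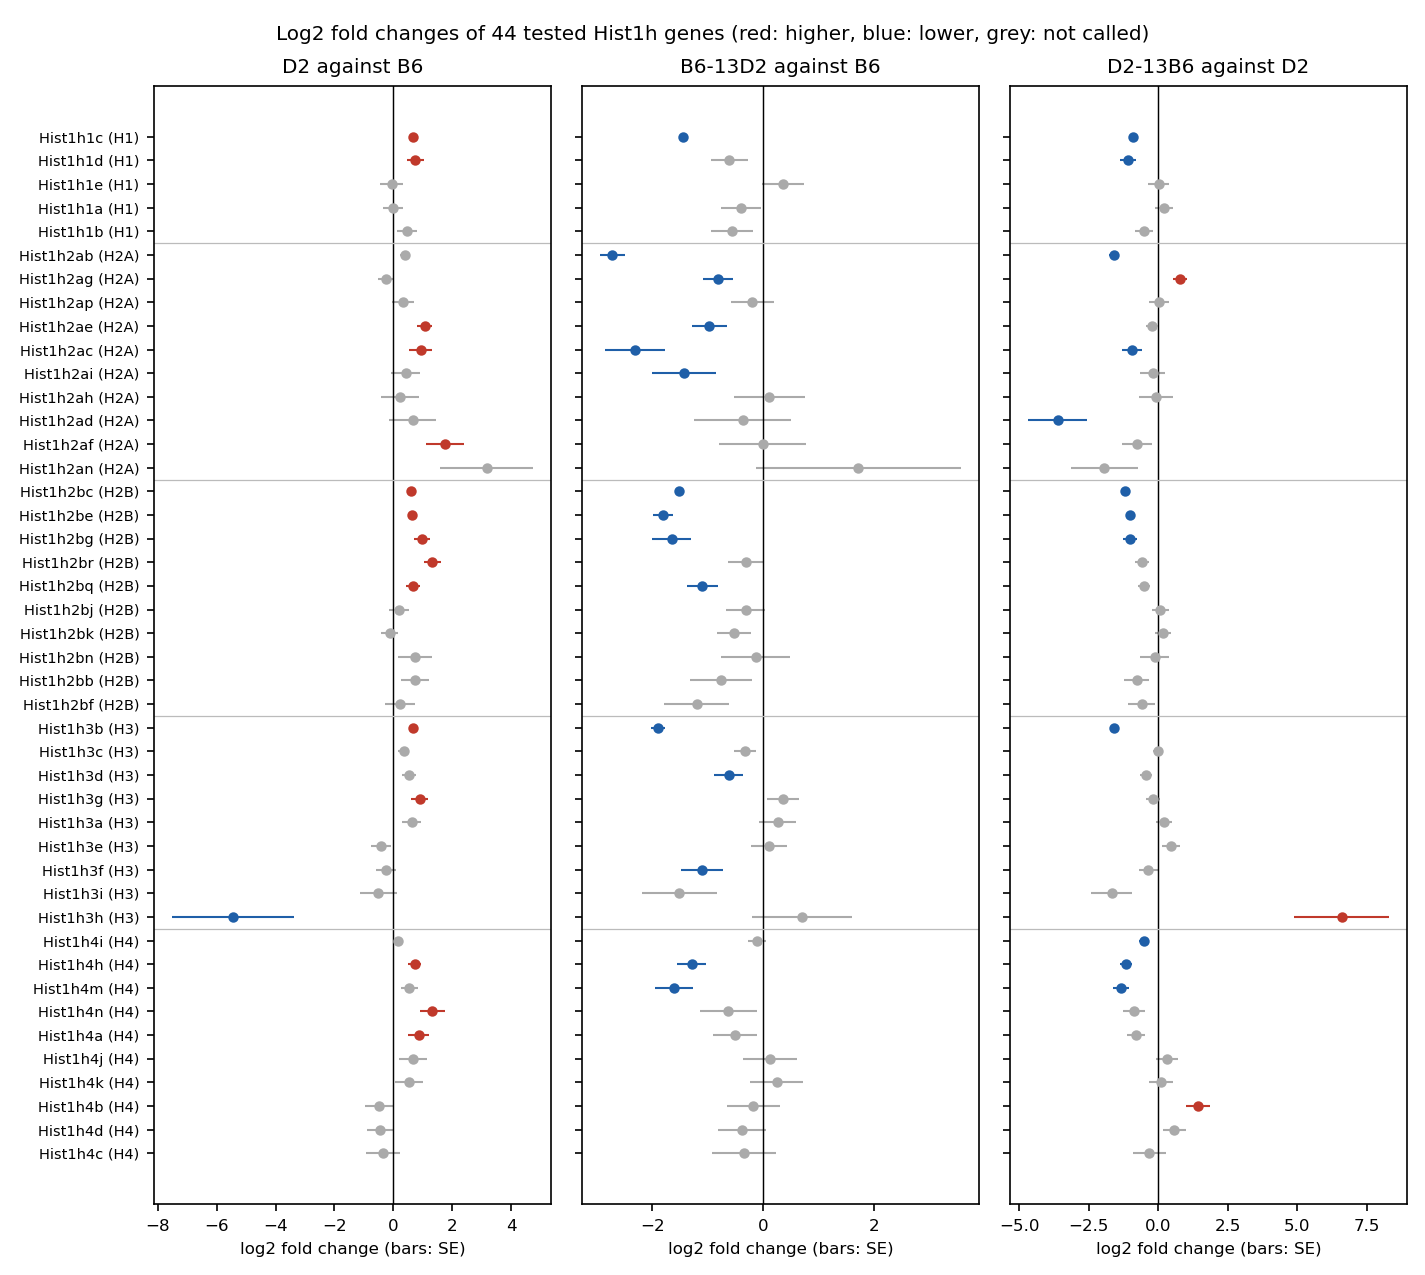
Log2 fold change of each of the 44 tested members (points, with bars of 1 SE) in the 3 comparisons, grouped by histone class and ordered by mean CPM within a class, with called members in red (higher) and blue (lower). Called members lie to the right of 0 in D2 against B6 except Hist1h3h, to the left in B6-13D2 against B6, and to the left in D2-13B6 against D2 except Hist1h2ag, Hist1h3h and Hist1h4b.

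Among the H1 genes, Hist1h1c (chr13:23738808-23740367, +, GRCm38) carried nearly all of the RNA. It was measured at 62.0, 62.0 and 66.5 CPM in the B6 libraries and at 106, 101 and 93.1 CPM in D2. It was measured at 24.6, 22.7 and 22.9 CPM in B6-13D2 and at 53.4, 53.9 and 54.0 CPM in D2-13B6. All 4 groups were apart from each other, with every B6-13D2 library under 25 CPM. Hist1h1c rose 1.58-fold in D2 over B6 (log2 0.66 ± 0.05 SE, edgeR adjusted p = 2.49e-09). It fell 2.71-fold in B6-13D2 against B6 (log2 -1.44 ± 0.05, adjusted p = 1.83e-13) and 1.86-fold in D2-13B6 against D2 (log2 -0.90 ± 0.05, adjusted p = 3.15e-11).
The other H1 genes tested were all under 2 CPM. Hist1h1d (chr13:23553262-23560686, +), another somatic linker histone, was at 0.922, 0.797 and 0.857 CPM in B6 and 1.67, 1.58 and 1.05 CPM in D2. It was at 0.346, 0.872 and 0.453 CPM in B6-13D2 and 0.685, 0.719 and 0.612 CPM in D2-13B6. The D2 libraries were above all others, and B6-13D2 overlapped with B6. B6-13D2 against B6 was not called (log2 -0.61, edgeR adjusted p = 0.131), but it was without B6-13D2 replicate 2 (log2 -1.10, adjusted p = 0.0137). Hist1h1d fell in D2-13B6 (log2 -1.09 ± 0.30, edgeR adjusted p = 0.0042), while its rise in D2 over B6 (log2 0.75 ± 0.30, adjusted p = 0.0406) was lost under 5 of the 6 omissions of a single library, with adjusted p from 0.0622 to 0.125.
Hist1h1a, Hist1h1b and Hist1h1e, the remaining somatic H1 genes of the cluster, were called in none of the 3 comparisons. Hist1h1a stood at 0.571, 0.671 and 0.471 CPM in B6 and 0.874, 0.445 and 0.409 in D2, and at 0.415, 0.436 and 0.453 in B6-13D2 and 0.657, 0.747 and 0.544 in D2-13B6. Hist1h1b stood at 0.395, 0.587 and 0.428 CPM in B6 and 0.624, 0.778 and 0.5004 in D2, and at 0.311, 0.369 and 0.264 in B6-13D2 and 0.575, 0.443 and 0.340 in D2-13B6. For both, the 3 B6-13D2 libraries were below the 3 B6 libraries, while the other pairs of groups compared overlapped. Hist1h1e stood at 0.263, 0.923 and 0.471 CPM in B6 and 0.541, 0.584 and 0.455 in D2, and at 0.830, 0.570 and 0.754 in B6-13D2 and 0.657, 0.470 and 0.476 in D2-13B6, with overlap in all 3 comparisons. Its annotated model overlaps that of Hist1h2be on the same strand. The counts of Hist1h1e were whole in every library, so no division of its reads shows in them, while those of Hist1h2be were not whole.

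Among the H2A genes, Hist1h2ab (chr13:23751126-23751598, +) had the deepest fall in B6-13D2 of the members described by library. It was at 6.18, 5.86 and 4.69 CPM in B6 and 7.68, 7.10 and 7.20 CPM in D2. It was at 1.36, 0.664 and 0.497 CPM in B6-13D2 and 2.51, 2.60 and 2.19 CPM in D2-13B6. No library of either congenic line reached the lowest parental library. The fall was 6.58-fold in B6-13D2 (log2 -2.72 ± 0.22, edgeR adjusted p = 8.9e-09) and 2.99-fold in D2-13B6 (log2 -1.58 ± 0.18, adjusted p = 5.27e-07). The parental difference of Hist1h2ab (log2 0.39 ± 0.17, adjusted p = 0.0524) missed the threshold in that fit and passed it in 7 alternatives, with DESeq2 at 0.0237.
Hist1h2ag (chr13:22042460-22042944, -) was called in opposite directions in the congenic lines. It was at 1.96, 2.13 and 2.99 CPM in B6 and 2.49, 2.32 and 0.985 CPM in D2. It was at 1.48, 1.39 and 1.15 CPM in B6-13D2 and 3.23, 2.94 and 4.14 CPM in D2-13B6. Each congenic line was apart from its parental strain, on opposite sides, while B6 and D2 overlapped. Hist1h2ag fell in B6-13D2 (log2 -0.81 ± 0.27, edgeR adjusted p = 0.0167) and rose in D2-13B6 (log2 0.79 ± 0.24, adjusted p = 0.0101), and was the only member of 44 called in the direction of the segment's allele on both backgrounds, against 7.33% of all genes. The first call was lost without B6 replicate 3 or B6-13D2 replicate 3 (adjusted p = 0.098 and 0.0612) and the other without D2-13B6 replicate 3 (adjusted p = 0.0563).
Hist1h2ae (chr13:23570517-23571220, -) was at 0.755, 0.807 and 1.15 CPM in B6 and 1.79, 2.12 and 1.66 in D2, and at 0.328, 0.562 and 0.495 in B6-13D2 and 1.32, 1.96 and 1.61 in D2-13B6. D2 lay above B6 and B6-13D2 below it without overlap, and D2-13B6 overlapped with D2. Hist1h2ae rose 2.08-fold in D2 (log2 1.06 ± 0.26, edgeR adjusted p = 0.00187) and fell in B6-13D2 (log2 -0.97 ± 0.31, adjusted p = 0.0125), a call lost without B6 replicate 3 or B6-13D2 replicate 1 (adjusted p = 0.078 and 0.0635).
Hist1h2ac (chr13:23681467-23683948, -), which shares the printed window with Hist1h2bc and was named after its values were seen, was scarce. It was at 0.496, 0.446 and 0.526 CPM in B6 and 1.18, 0.816 and 0.825 in D2, and at 0.0444, 0.0445 and 0.210 in B6-13D2 and 0.443, 0.567 and 0.446 in D2-13B6. Each comparison was without overlap, and Hist1h2ac rose in D2 and fell in B6-13D2 and D2-13B6 (log2 0.92, -2.31 and -0.94, edgeR adjusted p = 0.0441, 0.00129 and 0.0324).

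Among the H2B genes, Hist1h2bc (chr13:23684199-23692908, +) was the most abundant. It was at 44.8, 49.2 and 49.4 CPM in B6 and 74.2, 71.1 and 71.5 CPM in D2. It was at 17.2, 16.3 and 16.5 CPM in B6-13D2 and 30.9, 33.0 and 31.9 CPM in D2-13B6. The 4 groups were apart in the same order as for Hist1h1c. Hist1h2bc rose 1.51-fold in D2 (log2 0.60 ± 0.05, edgeR adjusted p = 4.32e-09). It fell 2.87-fold in B6-13D2 (log2 -1.52 ± 0.05, adjusted p = 4.65e-14) and 2.26-fold in D2-13B6 (log2 -1.18 ± 0.05, adjusted p = 6.52e-13).
Hist1h2be (chr13:23583670-23621124, -), a further H2B gene with a long model that overlaps Hist1h1e, was at 2.95, 3.59 and 2.81 CPM in B6 and 5.03, 4.34 and 5.40 CPM in D2. It was at 0.845, 0.911 and 0.954 CPM in B6-13D2 and 2.22, 2.44 and 2.60 CPM in D2-13B6. The 4 groups were again apart, with D2-13B6 below B6. Hist1h2be rose 1.56-fold in D2, fell 3.49-fold in B6-13D2 and fell 2.03-fold in D2-13B6 (edgeR adjusted p = 0.000907, 1.07e-07 and 7.71e-06).
Hist1h2bg (chr13:23571396-23572013, +) was at 1.13, 1.85 and 3.12 CPM in B6 and 3.79, 4.33 and 3.90 CPM in D2. It was at 0.445, 0.545 and 0.977 CPM in B6-13D2 and 1.47, 2.25 and 2.31 CPM in D2-13B6. Each comparison was without overlap, though B6 spread widely. Hist1h2bg rose 1.97-fold in D2, fell 3.14-fold in B6-13D2 and fell 2.01-fold in D2-13B6 (edgeR adjusted p = 0.00531, 0.000544 and 0.00326).
Hist1h2br (chr13:21833743-21837530, +), in the other stretch of the cluster, was at 1.59, 1.07 and 0.643 CPM in B6 and 3.338, 2.82 and 2.01 in D2, and at 0.668, 1.05 and 0.954 in B6-13D2 and 1.58, 2.18 and 1.62 in D2-13B6. D2 was above B6 without overlap, and both congenic lines overlapped with their parental strain. Hist1h2br rose 2.50-fold in D2 (log2 1.32 ± 0.28, edgeR adjusted p = 0.000612), and its values in B6-13D2 (log2 -0.30, adjusted p = 0.435) and D2-13B6 (log2 -0.59, adjusted p = 0.054) missed the threshold, the latter passing it in 5 alternatives, with adjusted p from 0.0182 to 0.0371.

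Among the H3 genes, the most abundant, Hist1h3b, fell in both congenic lines. Hist1h3b (chr13:23752267-23752886, +) was at 8.05, 9.51 and 9.10 CPM in B6 and 15.1, 14.6 and 12.4 CPM in D2. It was at 2.76, 1.96 and 2.46 CPM in B6-13D2 and 4.42, 5.05 and 4.49 CPM in D2-13B6. The 4 groups did not overlap. Hist1h3b rose 1.58-fold in D2 (log2 0.66 ± 0.10, edgeR adjusted p = 3.06e-05), fell 3.72-fold in B6-13D2 (log2 -1.90 ± 0.13, adjusted p = 8.61e-10) and fell 3.02-fold in D2-13B6 (log2 -1.59 ± 0.11, adjusted p = 8.31e-10).
Hist1h3c (chr13:23744973-23745602, -), which lies close by, was at 3.07, 2.54 and 3.24 CPM in B6 and 4.74, 3.59 and 3.07 in D2, and at 2.78, 2.10 and 2.18 in B6-13D2 and 3.42, 4.49 and 3.24 in D2-13B6. Its groups overlapped in all 3 comparisons and none was called (edgeR adjusted p = 0.111, 0.164 and 0.927). D2 against B6 passed the threshold without D2 replicate 3 (log2 0.47, edgeR adjusted p = 0.0413).
Hist1h3h, a scarce H3 gene named after its values were seen, was the single member called lower in D2 against B6. Its divided reads came to 12.7 expected counts in B6 replicate 1 and to next to none in the other B6 libraries and in D2. It had 2.91, 8.62 and 14.4 expected counts in B6-13D2 and 18.4, 10.6 and 13.6 in D2-13B6. The parental call thus rests on 1 library, and no fold change is given for it.

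Among the H4 genes, which are known to encode the same protein, Hist1h4h and Hist1h4m fell in both congenic lines and Hist1h4i in D2-13B6. Hist1h4h (chr13:23531050-23531519, +) was at 3.02, 2.05 and 3.31 CPM in B6 and 5.41, 4.96 and 3.31 in D2, and at 0.797, 1.31 and 1.32 in B6-13D2 and 2.57, 1.73 and 1.86 in D2-13B6. The congenic libraries were below those of their parental strain, while the lowest D2 library met the B6 range. Hist1h4h fell 2.44-fold in B6-13D2 and 2.22-fold in D2-13B6 (edgeR adjusted p = 0.00038 and 0.000214). Its rise of 1.65-fold in D2 (adjusted p = 0.00952) was lost without B6 replicate 2 (adjusted p = 0.059).
Hist1h4m (chr13:21811746-21812147, +) was at 3.81, 1.70 and 1.97 CPM in B6 and 3.87, 4.43 and 2.39 in D2, and at 0.526, 0.974 and 0.958 in B6-13D2 and 1.83, 1.20 and 1.25 in D2-13B6. B6 and D2 overlapped and both congenic lines were below their parental strain. Hist1h4m fell 3.05-fold in B6-13D2 and 2.52-fold in D2-13B6 (edgeR adjusted p = 0.000622 and 0.000801). Its parental difference (log2 0.54, edgeR adjusted p = 0.112) missed the threshold. It passed without B6 replicate 1, without D2 replicate 3 and with no filter (adjusted p = 0.00746, 0.0307 and 0.0173).
Hist1h4i (chr13:22040636-22041362, -) was at 4.08, 3.28 and 5.62 CPM in B6 and 5.40, 4.73 and 4.15 in D2, and at 3.99, 4.10 and 3.88 in B6-13D2 and 3.19, 3.44 and 3.33 in D2-13B6. Only D2-13B6 was apart from its parental strain. Hist1h4i fell there by 0.52 on the log2 scale (SE 0.16, edgeR adjusted p = 0.00842), a call lost without D2 replicate 1 (adjusted p = 0.0502). In B6-13D2 its log2 fold change was -0.12 (adjusted p = 0.56).

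**Figure D3:**
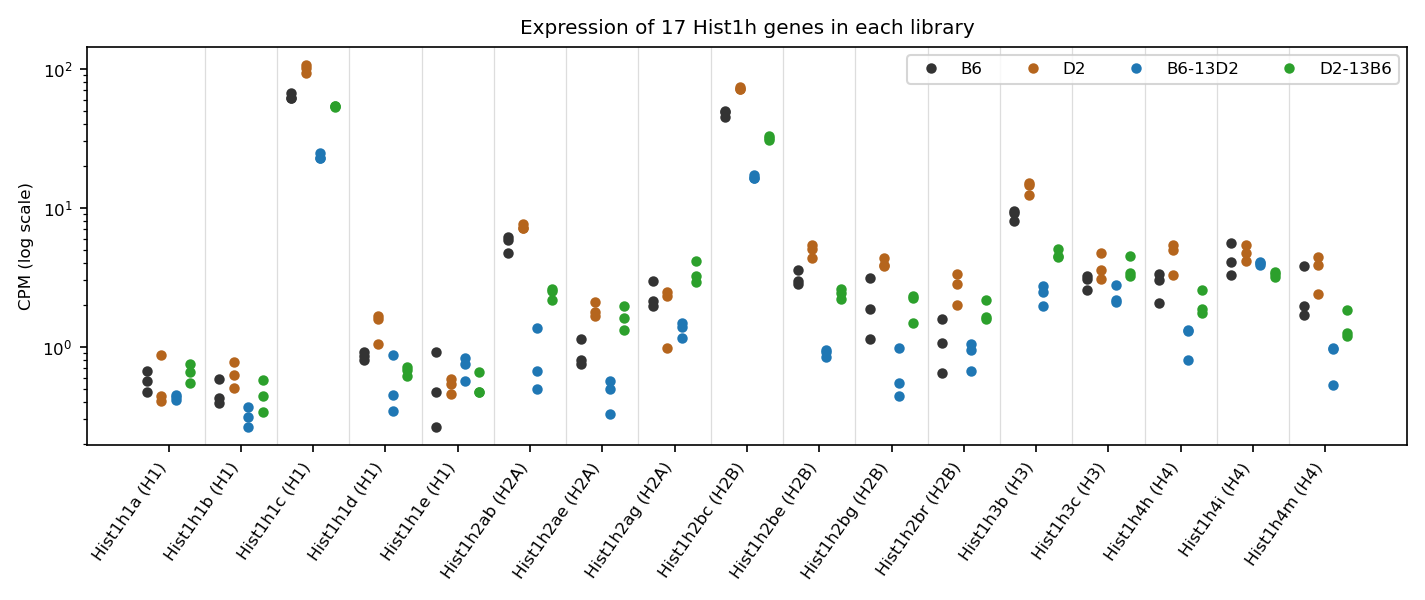
CPM of 17 Hist1h genes (log scale) in each of the 12 libraries, with a point for each library coloured by group. Hist1h1c and Hist1h2bc stand above the rest, and in Hist1h1c, Hist1h2bc, Hist1h2be and Hist1h3b the 4 groups separate in the order D2, B6, D2-13B6, B6-13D2.

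The 2 congenic comparisons use different libraries, so the members that fell in both can be counted. There were 9 of 44, a share close to the 19.8% of all genes, so that falling in both was not particular to the cluster. They were Hist1h1c, Hist1h2ab, Hist1h2ac, Hist1h2bc, Hist1h2be, Hist1h2bg, Hist1h3b, Hist1h4h and Hist1h4m. No member rose in both by edgeR, also at an unadjusted p under 0.05, against 12.4% of all genes. If the segments of both lines are taken as the same stretch, its D2 allele went, for these 9, with less RNA on the B6 background and with more on the D2 background. The difference between these segment effects, which equals both congenic lines less both parental strains, was called for 21 of 44 members, against 64.5% of all genes. It was negative for 20 (45.5%, against 33.4%) and positive for Hist1h3h, with a median log2 difference of -0.98 over the members and 0.00 over all genes. The column names of both congenic groups carry a prefix that those of the parental strains lack, and whatever the prefix marks, it and the congenic state cannot be told apart.

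Along the chromosome the tested members form a pair of stretches. Hist1h2al, a scarce processed pseudogene that was not tested, lies far from both, at chr13:51202727-51203065. The first, chr13:21716422-22043676, holds 18 tested members, and the second, chr13:23531050-23764406, holds 26. In the first stretch 3 of 18 rose (16.7%) and 1 fell in D2 against B6, 4 fell in B6-13D2 (22.2%), and 2 rose and 2 fell in D2-13B6. In the second stretch 12 of 26 rose in D2 against B6 (46.2%, against 29.8% of all genes), 11 fell in B6-13D2 (42.3%, against 32.9%), and 1 rose and 10 fell in D2-13B6 (3.85% and 38.5%, against 27.6% and 29.7%). Of the 18 members with a mean of at least 1 CPM, 9 were called in D2 against B6 (50.0%, against 60.0% of all genes), all higher. In B6-13D2 12 of these 18 were called (66.7%, against 58.3%), all lower, and in D2-13B6 10 were called (55.6%, against 57.3%), 1 higher and 9 lower. Of the 17 tested members with a spliced model or one that goes on for at least 100 bases past the stem-loop, 10 rose in D2 (58.8%, against 29.8% of all genes), 9 fell in B6-13D2 (52.9%, against 32.9%) and 7 fell in D2-13B6 (41.2%, against 29.7%). Of the other 27, 5 rose and 1 fell in D2, 6 fell in B6-13D2, and 3 rose and 5 fell in D2-13B6. These splits were described and not tested against each other, and scarce members have less power to be called.

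**Figure D4:**
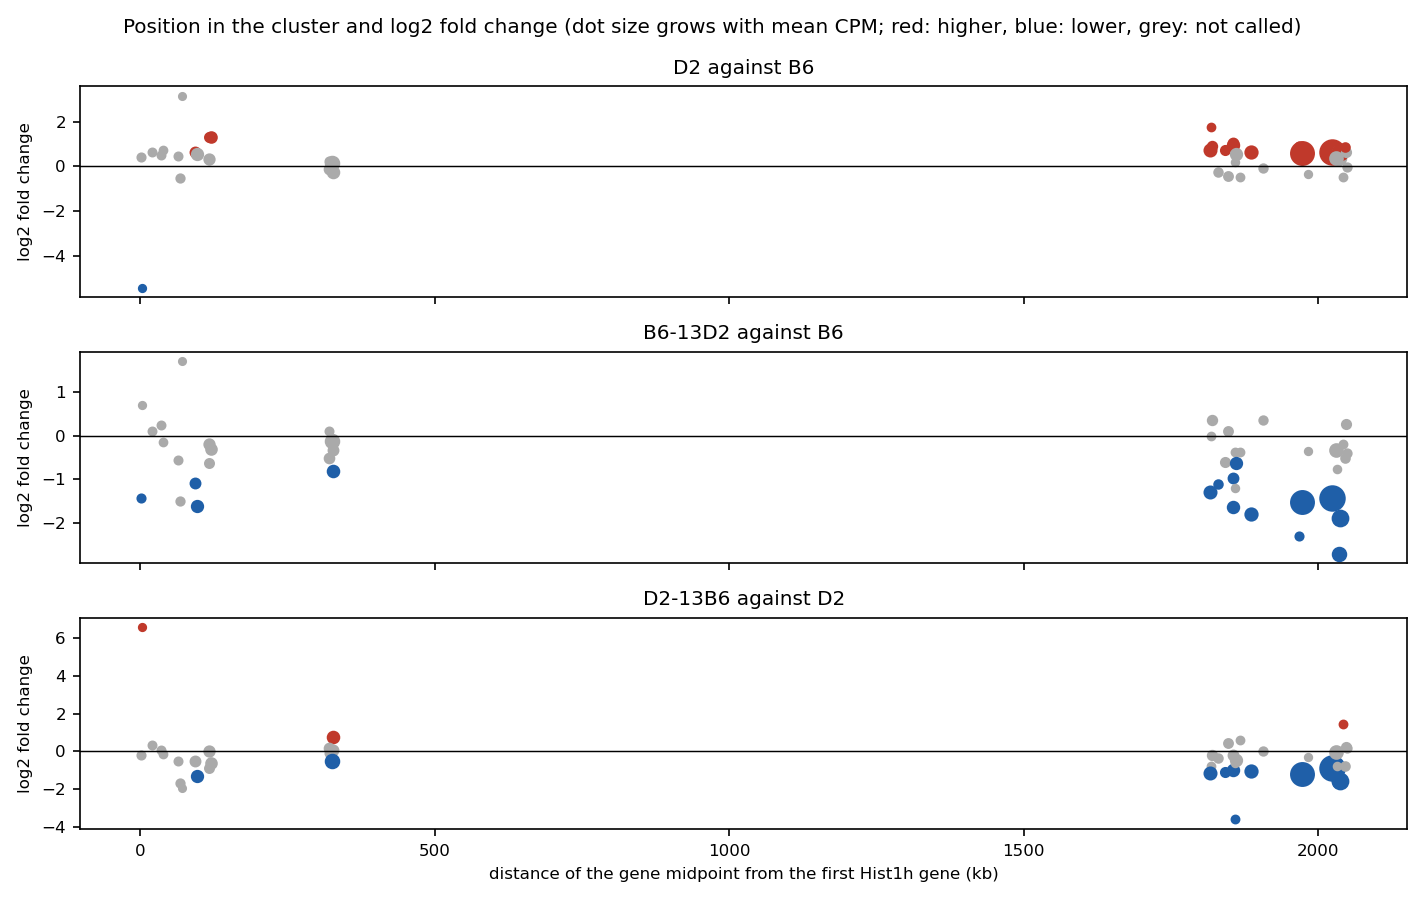
Log2 fold change of the 44 tested members (vertical axes) by distance of the gene's midpoint from the first Hist1h gene in kilobases (horizontal axis), in the 3 comparisons. Dot size grows with mean CPM, and red, blue and grey mark higher, lower and not called. The large blue dots of Hist1h1c and Hist1h2bc in both congenic comparisons lie in the second stretch.

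Of 14 replication-dependent histone genes outside the cluster (the Hist2h, Hist3h and Hist4h families) 9 were tested, of which 2 rose in D2 against B6 (29.8% of all genes rose), 3 fell in B6-13D2 (32.9%) and 3 fell in D2-13B6 (29.7%). Over these 9 genes the median log2 fold changes in the 3 comparisons were 0.621, -1.021 and -0.448, against 0.012, -0.035 and 0.0 over all genes. The remaining tested genes were not called, and some of them had positive values in the congenic lines, as Hist4h4 (log2 0.33 and 0.47). The 3 that fell in each congenic line were Hist2h2aa1 (log2 -1.64 and -1.12), Hist3h2a (-1.43 and -0.81) and Hist2h3c2 (-1.37 and -1.21), on chromosomes 3 and 11. Histone variants made outside replication had no common direction, with 3 of 11 risen and 5 fallen in D2, and 5 risen and 3 fallen in each congenic line.
Genes whose products act beside the cluster's transcripts were counted in 3 lists. Of 16 genes of DNA synthesis and S phase, all 16 fell in D2 against B6 (30.3% of all genes fell), 14 rose in B6-13D2 (25.4% of all genes rose), and 8 rose and 2 fell in D2-13B6 (27.6% and 29.7% of all genes). In D2 the ribonucleotide reductase subunit Rrm2 fell by 0.75 on the log2 scale, and in the congenic lines the thymidine kinase Tk1 rose by 0.57 and 0.75. Of 19 tested genes of histone mRNA processing and transcription, 1 rose and 12 fell in D2, 8 rose and 3 fell in B6-13D2 with 8 not called, and 10 rose and 1 fell in D2-13B6. Coil, which encodes the coilin of Cajal bodies, fell by 1.03 in D2. Of 9 replication chaperones of histones, 1 rose and 6 fell in D2, and 6 rose in each congenic line, with 2 and 1 fallen. Among them Chaf1b, a subunit of the chromatin assembly factor, had log2 fold changes of -0.57, 0.57 and 0.33 in the 3 comparisons.

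The summed fibroblast markers, of which Col1a1 and Col1a2 make up most, had the order of groups of the summed cluster, and none of the 5 genes was at 0 in any group. Of the single markers, Col3a1 was higher in D2-13B6 (373.5 CPM) than in B6 (335.3 CPM), and Pdgfra was highest in D2-13B6 (7.43 CPM, against 6.84 in D2, 5.03 in B6 and 2.57 in B6-13D2). All 5 rose in D2 against B6 and all 5 fell in B6-13D2, and 4 of 5 fell in D2-13B6. Col1a1, a chain of type I collagen, had log2 fold changes of 0.706, -1.619 and -1.004, beside 0.659, -1.439 and -0.899 for Hist1h1c. The summed 8 stem cell markers had another order, at 4904 to 5229 CPM in B6-13D2, 4286 to 4654 in B6, 3853 to 3921 in D2-13B6 and 3066 to 3149 in D2. Among them Klf4 departed from the sum, being highest in B6 (417.8 CPM) and lower in B6-13D2 (321.7 CPM). The labels describe no feeder cells, and the part of these marker levels in the Hist1h results was not tested.

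**Figure D5:**
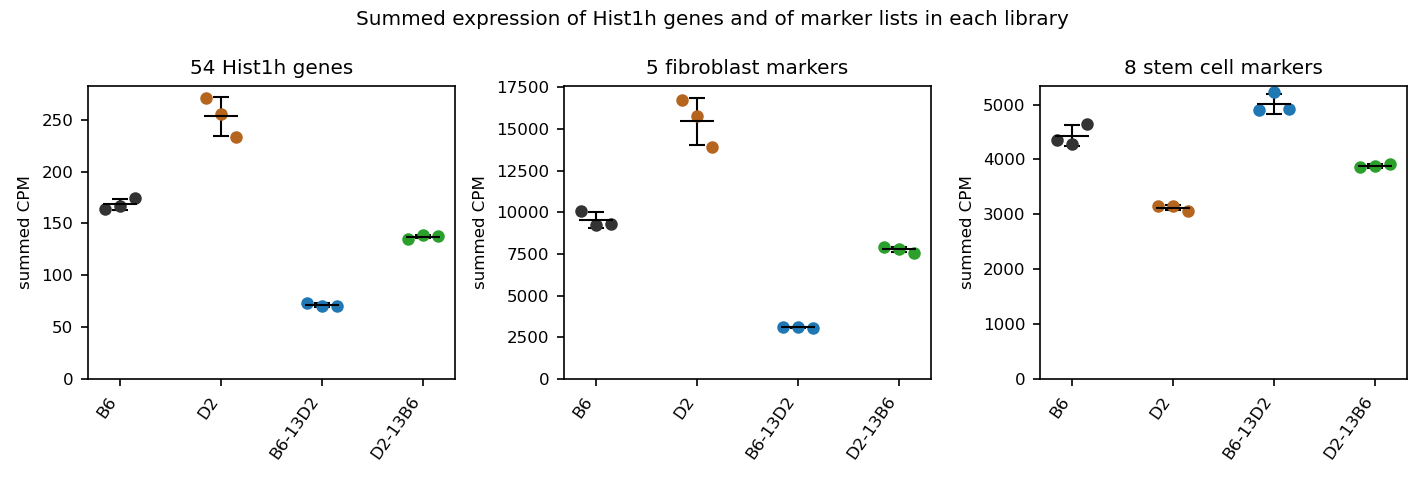
Summed CPM of the 54 Hist1h genes, of 5 fibroblast markers and of 8 embryonic stem cell markers (vertical axes, each from 0) in the 4 groups, with a point for each library, a line at the mean and bars of 1 SD over 3 libraries. The Hist1h genes and the fibroblast markers are highest in D2 and lowest in B6-13D2, and the stem cell markers are lowest in D2 and highest in B6-13D2.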

How the data were processed

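Expected counts per gene for 12 libraries were deposited by the authors in a single table, made with EMASE per the file's title, a method that divides reads among near-identical genes. Per the submitters' processing notes the tools include Bowtie 1.0.0 and edgeR 3.34.1 and the build mm10 (GRCm38). How strand was used in counting and whether poly(A) RNA was captured are not given in the sources used here. Of the 54 members in the table, 10 had whole counts in every library (within 1e-06), so most values of single members rest on that division of reads.

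Counts were rounded, filtered with filterByExpr (minimum count 10), scaled by TMM and fitted with edgeR 4.0.16 (glmQLFit, glmQLFTest) as 4 group means over 12 libraries. Calls used a Benjamini-Hochberg adjusted p under 0.05 over 17148 genes. CPM values used the unrounded counts and TMM library sizes. The fitting was tested on simulated whole counts with a dispersion above the common dispersion of the data (0.001834). Changes were placed only in genes above a minimum mean count. That test does not cover the scarcest members or reads divided among near-identical genes. Members, gene lists and tests were chosen with earlier results of these data known. Values in every library are given for the 2 most abundant tested members of each class, all tested H1 genes and members that followed the segment's allele. In each comparison they are also given for up to 3 of the largest rises among members called higher and 3 of the largest falls among members called lower. Only members whose groups did not overlap and whose mean log2 CPM was not negative entered that last choice. DESeq2 1.42.0, RLE size factors, other filters, a replicate block and omission of each library were the alternatives. Same-numbered libraries did not deviate together (mean correlation -0.00744 over 18 pairs).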

Additional observations from a re-analysis of the deposited data

Results flagged for a closer look

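The difference between segment effects on the B6 and D2 backgrounds was called (edgeR, adjusted p under 0.05) for 11 of the 17 members chosen by the rule for values in every library, a share close to the 64.5% of all genes tested. Some of the 17 were chosen for their fold changes in the congenic comparisons, from which this difference is made, so the values are a description and not independent support. The value is the log2 change from B6 to B6-13D2 less that from D2-13B6 to D2, so a negative value means that the D2 allele of the segment went with less RNA on the B6 background relative to the D2 background. It was -2.34 for Hist1h1c and -1.70 for Hist1h1d among the H1 genes. It was -4.30 for Hist1h2ab and -1.18 for Hist1h2ae among the H2A genes. The H2B genes Hist1h2bc, Hist1h2be and Hist1h2bg had -2.70, -2.83 and -2.66, and the H3 gene Hist1h3b had -3.49. Among the H4 genes it was -2.44 for Hist1h4h, -2.94 for Hist1h4m and -0.64 for Hist1h4i. Outside that rule, Hist1h2ac was also called (-3.25), as was Hist1h3h in the positive direction, for which no value is given because its D2 libraries hold next to no reads. The call of Hist1h4i was lost without B6 replicate 3 (adjusted p = 0.0804) or without D2 replicate 1 (adjusted p = 0.0638), and that of Hist1h2ae without B6 replicate 3 (adjusted p = 0.0519). Groups of 3 libraries were not examined for outlying libraries.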

How the results depend on the processing

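Of the alternative values for single members, 901 kept their side of the threshold, 29 lost a call and 22 gained one. The sign changed in 26, none of them called in either fit, among them Hist1h2ag in D2 against B6 and in the segment difference. Leaving out each library in turn gave 9 to 16 called members in D2 against B6, 11 to 16 in B6-13D2 against B6, 13 to 18 in D2-13B6 against D2 and 17 to 22 for the difference between segment effects. D2 against B6 had 5 called members that changed at least 1 on the log2 scale in either direction, and the segment difference 12 with a mean of at least 1 CPM, where fewer genes are tested. With total counts in place of TMM, H1 in B6-13D2 over B6 was 0.407. H4 with whole-count members alone was 0.805 for D2 over B6 and 1.21 for D2-13B6 over D2. In sums chosen after seeing the data, H1 without Hist1h1c was 1.29 for D2 over B6, 0.816 for B6-13D2 over B6 and 0.730 for D2-13B6 over D2, and H2B without Hist1h2bc was 0.508 and 0.653 in the congenic comparisons. The cause was not tested. Same-numbered libraries correlated at -0.161 to 0.0974, and whether libraries shared a batch of another kind was not tested. A fit with the replicate number as a block called 14, 14 and 15 members in the 3 comparisons and 20 for the segment difference, against 16, 15, 15 and 21, and lost the call of Hist1h1d in D2 against B6 (edgeR adjusted p = 0.0525). RLE scaling moved the median of all genes by at most 0.063 (log2). Depth limits the scarce members: most tested members lie under a few CPM, their reads are divided among near-identical genes, and a missed threshold there does not show equal levels.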

Other observations

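The 10 members that were not tested had at most 0.247 CPM on average. They were Hist1h2bl, Hist1h2aj, Hist1h2ak, Hist1h2bp, Hist1h2ao, Hist1h4f, Hist1h1t, Hist1h2ba, Hist1h2aa and Hist1h2al. Among them Hist1h1t, Hist1h2ba and Hist1h2aa are known for expression in the testis, and Hist1h2aj and Hist1h2al are annotated as pseudogenes.

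Among 10 tested genes that lie between the Hist1h genes and encode no histone, 1 rose and 4 fell in D2 against B6 (29.8% and 30.3% of all genes), 3 rose in B6-13D2 against B6 (25.4%), and 1 rose and 1 fell in D2-13B6 against D2 (27.6% and 29.7%). Btn2a2, a member of the butyrophilin family, stood at 2.29 ± 0.147 CPM in B6 and 2.63 ± 0.612 CPM in B6-13D2, and at 0.398 ± 0.199 CPM in D2 and 0.286 ± 0.109 CPM in D2-13B6 (mean ± SD, n = 3 libraries). Its level thus went with the background strain and, unlike that of Hist1h1c, was called in neither congenic comparison. The zinc finger gene Zfp322a rose in both congenic lines (log2 0.50 and 0.39, edgeR adjusted p = 3.57e-06 and 4.56e-05).

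Coding sequences of 45 core histone members were compared within the cluster. The best identity to another member had a median of 98.8% and a lowest value of 94.2%, and 6 members were identical to another.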
